A study of Mus musculus with 6 samples.

Results

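The 9 genes described here encode subunits of the condensin complexes (Smc2, Smc4, Ncapd2, Ncapd3, Ncapg, Ncapg2 and Ncaph) together with Top2a and Mki67, whose products act on the same mitotic chromosomes. They were chosen by name. Every non-control array probe whose RefSeq accession belongs to one of these symbols was taken, which gave 11 probes for the 9 genes, out of 55681 probes on the array. All 9 genes were measured, among 14870 named genes with a probe well above background on at least 3 arrays. Mki67 and Ncapd3 had 2 probes each and the other genes had a single probe.

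Spermatogonial stem cells, which sustain sperm production, were grown out of dissociated mouse testis cells and, after a few passages, moved to medium with mouse embryonic fibroblasts (feeder cells). Cells received 0.01 M captopril, an inhibitor of angiotensin-converting enzyme, for 24 h, or water for the same time, with 3 arrays in each group that the labels number 2, 3 and 4. The labels describe independent experiments, and mouse strain and age are not given in the sources used here. They also write 0.01 M for the water, so what this figure refers to is not settled. RNA came from whole cultures. Fewer dividing cells and less RNA per dividing cell therefore cannot be told apart.

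Condensins are ring-shaped ATPase complexes that fold chromatin into loops and so give mitotic chromosomes their compact rod shape. Smc2 and Smc4 form the core of both complexes. Condensin I adds Ncapd2, Ncapg and Ncaph and reaches the chromosomes once the nuclear envelope has broken down, while condensin II adds Ncapd3, Ncapg2 and Ncaph2 and is nuclear already in interphase. Topoisomerase II alpha, the product of Top2a, untangles sister DNA molecules, and Ki-67, the product of Mki67, coats the surface of condensed chromosomes and is widely used as a marker of proliferating cells. Transcripts of such genes rise towards G2 and mitosis, and in a stem cell culture they are read as signs of cycling cells.

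Many promoters of G2 and mitosis genes carry the letters CCAAT, which the factor NF-Y binds, and a cell cycle homology region with the letters TTTGAA or TTCGAA, which the MuvB complex binds. The 250 bases before the transcription start are shown for 4 genes that were lower with captopril on all arrays of at least 1 of the comparisons below, and for Ncaph, which was not. RefSeq windows (build GRCm38.p6, 5′ to 3′ on the strand of the gene) were matched for 8 of the 9 genes by symbol. Smc4 had no entry. The windows are chr4:52438971-52439220 (plus strand) for Smc2, chr5:45669675-45669924 (plus) for Ncapg, chr11:99024190-99024439 (minus) for Top2a, chr7:135716380-135716629 (minus) for Mki67 and chr2:127133955-127134204 (minus) for Ncaph. Capitals mark matches, on either strand, to these letters or to the E2F letters TTTGGCGC, TTTCCCGC, TTTCGCGC and TTTGCCGC.
Smc2: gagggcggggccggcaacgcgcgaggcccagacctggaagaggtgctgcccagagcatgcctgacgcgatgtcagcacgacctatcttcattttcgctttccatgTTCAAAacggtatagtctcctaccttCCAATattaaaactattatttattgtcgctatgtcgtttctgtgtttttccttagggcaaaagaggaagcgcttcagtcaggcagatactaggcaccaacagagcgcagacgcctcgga
Ncapg: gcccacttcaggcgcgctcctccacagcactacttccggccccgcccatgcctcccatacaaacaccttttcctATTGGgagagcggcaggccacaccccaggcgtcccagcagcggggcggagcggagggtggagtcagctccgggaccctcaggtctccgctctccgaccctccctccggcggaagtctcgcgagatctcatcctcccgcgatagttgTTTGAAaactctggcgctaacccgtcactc
Top2a: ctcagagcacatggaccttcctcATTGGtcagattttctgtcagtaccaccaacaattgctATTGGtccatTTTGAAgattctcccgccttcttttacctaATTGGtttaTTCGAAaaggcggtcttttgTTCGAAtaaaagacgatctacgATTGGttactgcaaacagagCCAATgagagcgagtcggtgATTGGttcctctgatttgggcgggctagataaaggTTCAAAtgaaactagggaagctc
Mki67: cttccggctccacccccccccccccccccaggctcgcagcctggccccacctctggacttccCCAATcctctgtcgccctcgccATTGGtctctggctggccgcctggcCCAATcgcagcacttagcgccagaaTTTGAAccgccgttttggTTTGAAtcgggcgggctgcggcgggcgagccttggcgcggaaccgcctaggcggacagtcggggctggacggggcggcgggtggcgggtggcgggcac
Ncaph: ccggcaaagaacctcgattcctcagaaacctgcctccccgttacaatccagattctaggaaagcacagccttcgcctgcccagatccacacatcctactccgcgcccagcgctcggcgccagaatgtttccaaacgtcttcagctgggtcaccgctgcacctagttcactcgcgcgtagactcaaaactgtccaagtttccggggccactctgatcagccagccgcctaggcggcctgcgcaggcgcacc

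The homology region letters were found before the start of 7 of the 8 genes with an entry, Ncaph being the exception, and in 17.1% of all 32851 mouse windows of this length. In Ncapd3 they lay in 1 of its 2 windows. CCAAT was found in 5 of the 8 genes (Smc2, Ncapg, Ncapd2, Top2a and Mki67) and in 33.8% of all windows. The E2F letters were found in Ncapd2 and Ncapg2 and in 1.86% of all windows. Top2a held 6 CCAAT matches and 4 homology region matches, the most of any of these genes, and Mki67 held 3 and 2. In Ncapg the homology region match lay 30 to 25 bases before the start. The letters do not divide the genes by their values below, since Ncapd2, whose groups overlapped, held all 3 kinds. A match describes the letters only.

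Over all 6 arrays every one of the 9 genes, by its only or brighter probe, had a lower mean with captopril than with water. The means were lower by 0.08 to 0.68 on the log2 scale, but no single gene passed the test. The other probe of Ncapd3 had a higher mean with captopril (0.71). Among all genes 53.2% had a negative difference. Levels are log2 signals relative to the 75th percentile of each array. Differences are log2 fold changes, captopril minus water, with a standard error (SE) from limma. With Benjamini-Hochberg adjustment over all 14870 genes and a threshold of 0.05, limma called 0% of them, while 1220 genes lay below 0.05 before adjustment. The adjusted p of the 9 genes lay between 0.592 and 0.939. In 4 of the 9 genes (Smc2, Smc4, Ncapg and Mki67) all captopril arrays lay below all water arrays, against 11.4% of all genes tested. An unadjusted p under 0.05 with a lower mean was found in 3 of the 9 (Smc4, Ncapg and Mki67), against 4.90% of all genes. The median of the 9 differences was −0.61 and that of all genes was −0.03.

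Water replicate 3 stood apart and bears on each value below. It correlated with the other arrays at 0.878 to 0.893 over 32414 probes, while the other 5 correlated with each other at 0.970 to 0.9915. It was the highest of the 6 arrays for 54.8% of all genes and the lowest for 24.1%. Among the 9 genes it was the highest for 6 and the lowest for Top2a. The comparison was therefore also made on the 5 arrays without it, where limma called 91 genes (62 higher, 29 lower), or 0.612%. None of the 9 genes was among them (adjusted p between 0.106 and 0.968). On these 5 arrays 5 of the 9 genes (Top2a with the 4 named above) were lower on all captopril arrays than on both water arrays, against 15.7% of all genes. An unadjusted p under 0.05 with a lower mean was found in 4 (Top2a, Ncapg, Smc4 and Mki67), against 6.98%. The median of the 9 was −0.31 and that of all genes was 0.07. A negative difference was found in 7 of the 9 on these arrays, against 41.5% of all genes.

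**Figure D1:**
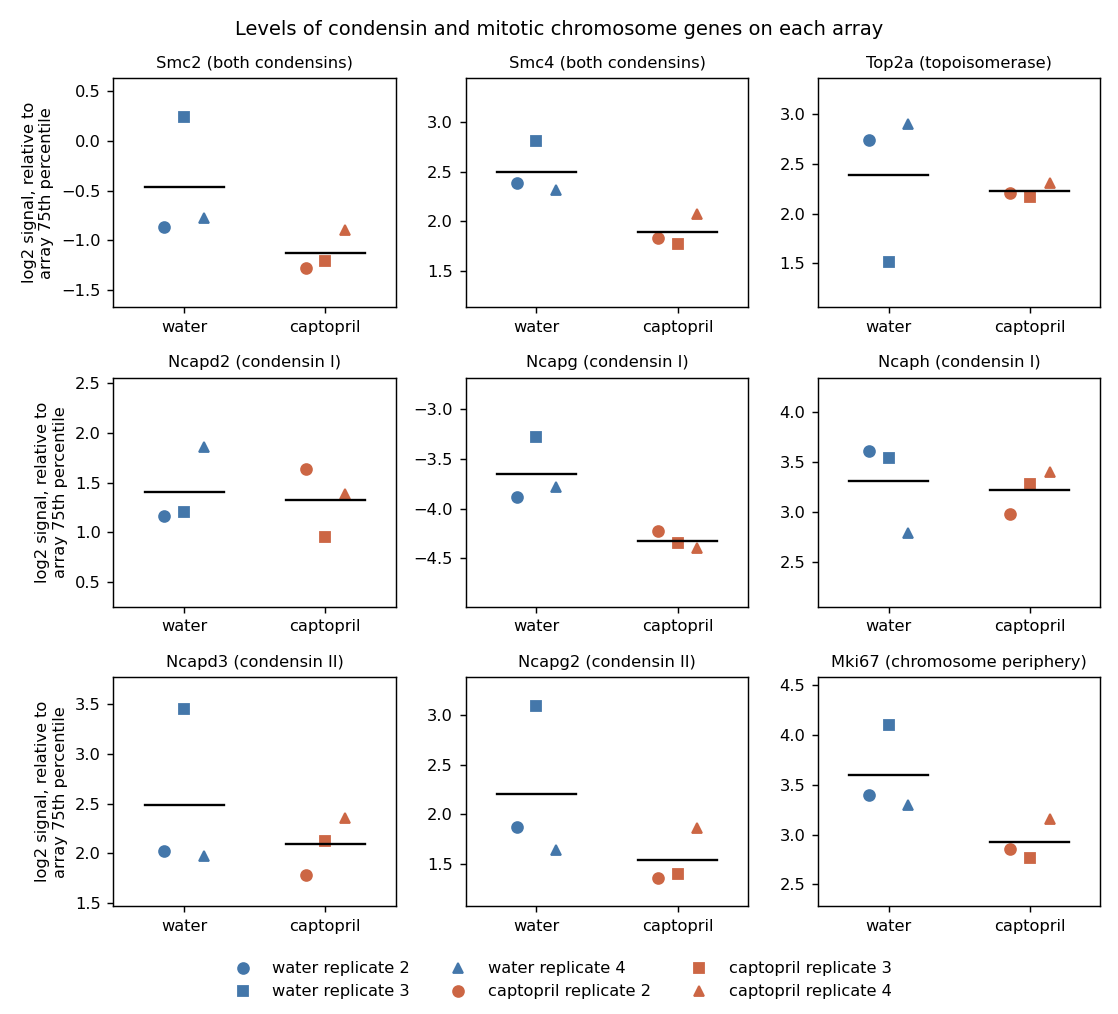
Log2 signal relative to the 75th percentile of the array for each of the 9 genes (brighter probe where there are 2), with a point for each array, a different marker for each replicate number and a line at the group mean. All panels span the same range in log2 units, and water replicate 3 (blue square) is the highest point for 6 genes and the lowest for Top2a.

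Smc4, an ATPase of the condensin core, had the lowest unadjusted p of the core pair. Its level was 2.39, 2.81 and 2.31 on water replicates 2, 3 and 4, and 1.83, 1.77 and 2.07 on captopril replicates 2, 3 and 4. All water arrays lay above all captopril arrays, and the captopril array nearest to water was replicate 4. The difference over 6 arrays was −0.61 (SE 0.24, unadjusted p = 0.037, limma adjusted p = 0.597), a 1.53-fold lower level. On 5 arrays it was −0.46 (SE 0.16, unadjusted p = 0.024, adjusted p = 0.198), or 1.37-fold lower.

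Smc2, the partner ATPase, stood at −0.86, 0.24 and −0.77 on water replicates 2, 3 and 4 and at −1.28, −1.21 and −0.89 on captopril replicates 2, 3 and 4. The groups did not overlap, although captopril replicate 4 and water replicate 2 lay close together. The difference was −0.66 (SE 0.34, adjusted p = 0.625) over 6 arrays. It was −0.31 on 5 arrays (SE 0.17, unadjusted p = 0.113, adjusted p = 0.360). The 95% interval on 5 arrays ran from −0.71 to 0.10.

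Among the condensin I subunits, Ncapg alone kept its groups apart. Ncapg encodes a HEAT-repeat subunit that helps the complex hold DNA. Its level was −3.89, −3.28 and −3.78 on water replicates 2, 3 and 4 and −4.22, −4.34 and −4.39 on captopril replicates 2, 3 and 4. It was a dim probe, well above background on 5 arrays but not on captopril replicate 4, so the level there rests on a signal near background. The difference was −0.67 (SE 0.24, unadjusted p = 0.028, adjusted p = 0.592) over 6 arrays and −0.49 (SE 0.14, unadjusted p = 0.012, adjusted p = 0.155) on 5.

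Ncapd2, the other HEAT-repeat subunit of condensin I, was spread in both groups. Its level was 1.16, 1.21 and 1.86 on water replicates 2, 3 and 4 and 1.64, 0.95 and 1.39 on captopril replicates 2, 3 and 4. The highest of the 6 arrays was water replicate 4 and the lowest was captopril replicate 3, while captopril replicates 2 and 4 lay above water replicates 2 and 3. The difference was −0.08 (95% interval −0.78 to 0.62) over 6 arrays and −0.18 (−0.84 to 0.48) on 5. Without water replicate 4 it changed sign, to 0.14 over the other 5 arrays, and without captopril replicate 3 it was 0.10.

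Ncaph, the kleisin that closes the condensin I ring, showed no separation either. It stood at 3.61, 3.54 and 2.78 on water replicates 2, 3 and 4 and at 2.98, 3.28 and 3.40 on captopril replicates 2, 3 and 4. The water arrays held both the highest and the lowest value. The difference was −0.09 (95% interval −0.79 to 0.60) over 6 arrays and 0.02 (−0.61 to 0.66) on 5, intervals that include the values of Smc4 and Ncapg. On 5 arrays its sign turned with normexp (−0.004), under quantile normalization (−0.07) and when arrays were scaled by their median (−0.11).

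The condensin II subunits overlapped between the groups. Ncapg2 stood at 1.87, 3.09 and 1.64 on water replicates 2, 3 and 4 and at 1.36, 1.40 and 1.86 on captopril replicates 2, 3 and 4. Captopril replicate 4 lay at the level of water replicate 2, and the water mean was raised by replicate 3. The difference was −0.66 over 6 arrays (SE 0.41, adjusted p = 0.641). It was −0.22 on 5 arrays (SE 0.20, adjusted p = 0.570), with a 95% interval from −0.69 to 0.26.

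Ncapd3, the other condensin II HEAT-repeat subunit, had probes that went opposite ways on water replicate 3. The brighter probe stood at 2.02, 3.46 and 1.98 on water replicates 2, 3 and 4 and at 1.78, 2.13 and 2.36 on captopril replicates 2, 3 and 4. The other probe stood at 1.20, 0.14 and 1.36 on the water arrays and at 1.20, 2.05 and 1.58 on the captopril arrays, in the same order of replicates. Water replicate 3 was thus the highest array by the first probe and the lowest by the second, although both carry the accession NM_178113. The brighter probe gave −0.39 (SE 0.43, adjusted p = 0.754) over 6 arrays and 0.09 (SE 0.20, adjusted p = 0.812) on 5, and median scaling of the 5 arrays put it at −0.04. In a fit of all 32414 probes the other probe gave 0.71 (SE 0.40, adjusted p = 0.579) over 6 arrays and 0.33 (SE 0.26, adjusted p = 0.493) on 5. That fit called 0% of probes over 6 arrays and 0.256% on 5, and no probe of these genes was among them. The direction of Ncapd3 is therefore not settled by these arrays.

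The place of Top2a depended on water replicate 3. It stood at 2.74, 1.52 and 2.90 on water replicates 2, 3 and 4 and at 2.21, 2.17 and 2.31 on captopril replicates 2, 3 and 4. The captopril arrays lay close together (SD 0.07, n = 3), below water replicates 2 and 4 and above water replicate 3. Over 6 arrays the difference was −0.16 (SE 0.38, adjusted p = 0.903), and it was 0.02 without water replicate 2 and 0.10 without water replicate 4. On 5 arrays it was −0.59 (SE 0.15, unadjusted p = 0.0048, adjusted p = 0.106), a 1.51-fold lower level and the smallest p of the 9 genes. There 5.88% of all genes had a lower value.

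Mki67 was measured by a pair of probes that gave the same order of the groups. The brighter probe stood at 3.40, 4.10 and 3.30 on water replicates 2, 3 and 4 and at 2.85, 2.76 and 3.16 on captopril replicates 2, 3 and 4. The other stood at 2.77, 3.77 and 2.62 on the water arrays and at 1.98, 1.44 and 2.16 on the captopril arrays. On both probes every captopril array lay below every water array, and captopril replicate 4 was the nearest to water. The brighter probe gave −0.68 (SE 0.29, unadjusted p = 0.0497, adjusted p = 0.607) over 6 arrays and −0.43 (SE 0.17, unadjusted p = 0.043, adjusted p = 0.247) on 5, with an unadjusted p of 0.0545 over 6 arrays in the fit of all probes. In the fit of all probes the other probe gave −1.19 (SE 0.38, adjusted p = 0.563) and −0.84 (SE 0.24, adjusted p = 0.140), that is 2.29-fold and 1.79-fold lower. Signals of the 2 probes are not compared with each other, since each has its own brightness.

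**Figure D2:**
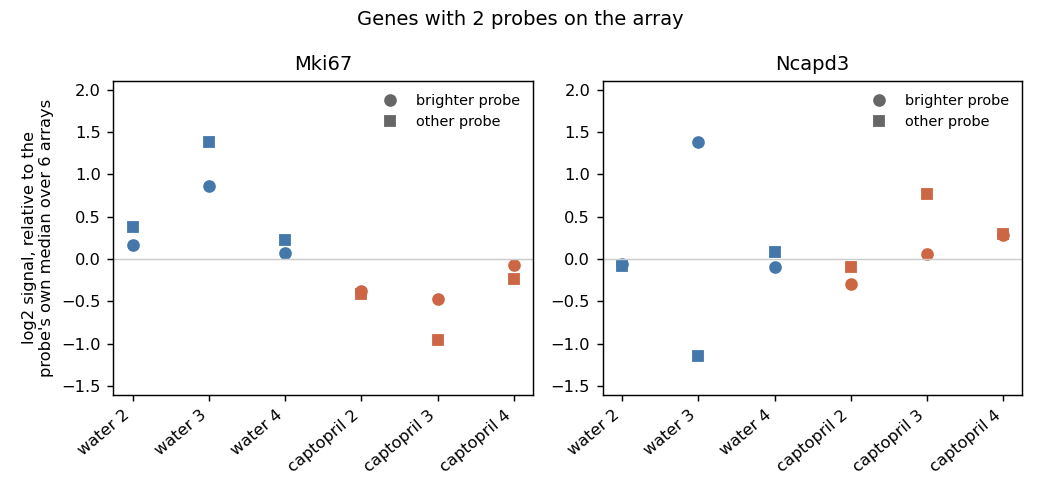
Log2 signal of both probes of Mki67 (left) and Ncapd3 (right) on each array, relative to the median of the same probe over the 6 arrays (blue, water; orange, captopril; circle, brighter probe; square, other probe). Both Mki67 probes lie lower on the captopril arrays than on the water arrays, and the Ncapd3 probes part on water replicate 3, at 3.46 and 0.14 in log2 signal.

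The differences ran from −0.68 to −0.08 over 6 arrays and from −0.59 to 0.09 on 5. Smc4, Ncapg and Mki67 had 95% intervals below 0 in both comparisons and Top2a on 5 arrays alone, before any adjustment for the number of genes tested. For the other 5 genes the interval included 0 in both. The value of Ncapg, a dim probe, depended on the processing. With normexp it was −0.52 (SE 0.28) over 6 arrays and −0.26 (SE 0.17) on 5. A variance trend with robust fitting raised its SE to 0.31 and 0.21. It lay further below 0 with quantile normalization (−0.98 and −0.65) and with median scaling (−0.97 and −0.62). No difference between members was tested. By complex, both core subunits, 1 of the 3 condensin I subunits and neither of the condensin II subunits had groups apart over 6 arrays. The counts were the same on 5 arrays. Among all genes the shares apart and lower with captopril were 11.4% over 6 arrays and 15.7% on 5. With so few genes in each complex, these counts cannot show a difference between the complexes.

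**Figure D3:**
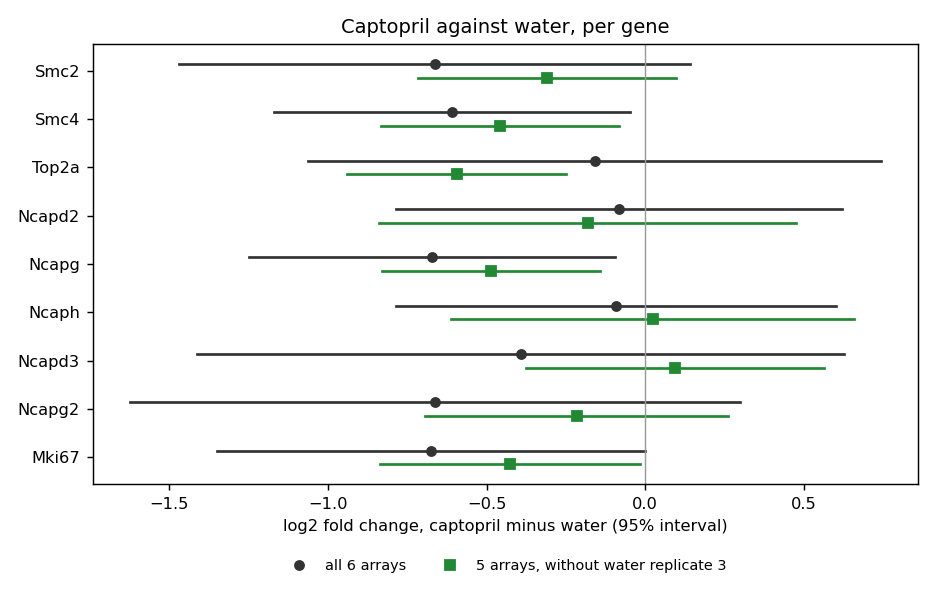
Log2 fold change, captopril minus water, for each gene with its 95% interval from limma, over all 6 arrays (black circles) and over the 5 arrays without water replicate 3 (green squares). Intervals are shorter on 5 arrays for all 9 genes, Top2a moves from −0.16 to −0.59, and Ncapd3 and Ncaph sit on either side of 0.

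The level of the 9 genes on each array was summarised by the median of their values, each relative to its own median over the 6 arrays. This was 0.17, 0.78 and 0.10 on water replicates 2, 3 and 4 and −0.36, −0.33 and 0.05 on captopril replicates 2, 3 and 4. The same summary over all genes was −0.01, 0.36 and −0.07 in water and −0.03, 0.003 and 0.09 with captopril. Captopril replicate 4 thus lay closer to the water arrays than the other captopril arrays did. It was the highest of the captopril arrays for 7 of the 9 genes, and for 56.7% of all genes. All captopril arrays and water replicate 4 lie in slide row 2, and water replicates 2 and 3 in row 1. Within row 2 the median of the 9 genes was −0.38 and that of all genes was 0.11, with a single water array behind each. Of the 9 genes 7 were negative, while Ncaph (0.44) and Ncapd3 (0.12) were positive. There 6 of the 9 genes were lower on all captopril arrays than on water replicate 4, against 23.7% of all genes.

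Among markers of the culture's cells, feeder fibroblast genes also had lower values with captopril. All 10 listed fibroblast markers, including the collagens Col1a1, Col1a2 and Col3a1, were measured. Their summed level, in multiples of the array's 75th percentile, was 119 to 209 in water and 99.2 to 128 with captopril, with the 209 on water replicate 3 and 131 the higher of the other water arrays. The median difference of the 10 was −0.67 over 6 arrays and −0.45 on 5. All 10 stem cell markers, Ddx4, Dazl and Gfra1 among them, were measured as well, 9 of them well above background on every array. Their summed level was 47.5 to 49.7 on water replicates 2 and 4, 82.7 on water replicate 3 and 49.7 to 64.7 with captopril, and their median difference was −0.08 over 6 arrays and 0.02 on 5. Of 7 Sertoli cell markers 3 passed the filter (Sox9, Wt1 and Rhox8), and these 3 were well above background on all 6 arrays. Their summed level was 15.9 to 19.4 in water and 15.3 to 17.3 with captopril. The Sertoli cell markers Amh, Cldn11 and Fshr were above background on no array. Of 6 Leydig cell markers 1 passed, and Cyp11a1, Cyp17a1, Hsd3b1 and Lhcgr were above background on no array. What part the fibroblast share has in the values of the 9 genes was not tested.

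The other genes that act with condensin on mitotic chromosomes mostly had negative values too. Of 21 such partners, all measured, 17 had negative values over 6 arrays with a median of −0.46, and 18 on 5 arrays with a median of −0.29. Among all genes 53.2% were negative over 6 arrays and 41.5% on 5. None passed in either comparison. The groups were apart and captopril lower in 7 of 21 over 6 arrays and in 9 of 21 on 5, against the 11.4% and 15.7% of all genes given above. Over 6 arrays 1 of the 21 had an unadjusted limma p under 0.05 with a lower mean, against 4.90% of all genes. On 5 arrays 3 of the 21 did, against 6.98%. The lowest values over 6 arrays were those of Sgo2a, a shugoshin that protects centromeric cohesion (−1.06, SE 0.47), Aurkb, the kinase of the chromosomal passenger complex (−1.06, SE 0.67), and Ccnb1, the mitotic cyclin (−1.05, SE 0.56), with adjusted p of 0.614, 0.641 and 0.629. On 5 arrays they were −0.54 (SE 0.23), −0.77 (SE 0.70) and −0.76 (SE 0.56). For Aurkb and Ccnb1 the groups overlapped, and a single captopril array lay far below the rest. The lowest level of Aurkb was −2.88 (captopril replicate 4), while its other levels ranged from −1.18 to 0.22. The lowest level of Ccnb1 was 0.57 (captopril replicate 3), while its other levels ranged from 1.97 to 3.34. The other probes of Ccnb1 gave 0.43 and 1.84 over 6 arrays but −0.37 and −0.08 on 5, so its probes differed in direction only with water replicate 3 included. The highest was Cdca8, a passenger subunit, at 1.17 (SE 0.97, adjusted p = 0.672), whose level on water replicate 3 was −0.76 against 2.87 to 3.08 elsewhere and whose value on 5 arrays was −0.09. The other probe of Cdca8 gave −0.57 over 6 arrays and −0.29 on 5. Ncaph2, the condensin II kleisin, which was named for its role, had a difference of 0.40 (SE 0.50) over 6 arrays and of −0.19 (SE 0.21) on 5, and its other probe gave −0.12 and 0.10.

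The other SMC complexes, which are related rings with other tasks, had medians nearer to 0. Cohesin, which holds sister chromatids together, had 8 of 12 negative values in both comparisons (66.7%), with medians of −0.29 and −0.09. Among all genes 53.2% were negative over 6 arrays and 41.5% on 5. Captopril was lower with groups apart in 3 of 12 cohesin genes over 6 arrays and in 4 on 5. The shares of all genes were 11.4% and 15.7%. In 1 cohesin gene captopril was higher with groups apart, on 5 arrays, where this held for 4049 of all 14870 genes. The lowest differences over 6 arrays were those of Esco2, an acetyltransferase of replicating cells (−1.08, SE 0.57), Stag1, a cohesin subunit (−0.85, SE 0.35), and Esco1, the other acetyltransferase (−0.64, SE 0.39). On 5 arrays they were −0.39 (SE 0.18), −0.49 (SE 0.19) and −0.24 (SE 0.22). The other probe of Esco1 gave 1.28 over 6 arrays and 0.06 on 5. The loader gene Nipbl was highest at 0.60 (SE 0.51), with a level of −1.67 on water replicate 3 against 0.11 to 0.29 elsewhere, and on 5 arrays its difference was −0.02. The SMC5/6 complex, which acts in DNA repair, had 6 of 8 negative values over 6 arrays and 7 of 8 on 5, with medians of −0.27 and −0.15. An unadjusted limma p under 0.05 with a lower mean was found in 2 of these 8 genes in both comparisons. In cohesin it was found in 1 and 2 of 12, and among all genes in 4.90% and 6.98%. No gene of either list had such a p with a higher mean, while 492 of all 14870 genes did over 6 arrays and 1801 on 5. The SMC5/6 groups were apart and captopril lower in 3 of 8 in both comparisons, against 11.4% and 15.7% of all genes. Captopril was higher with groups apart in 1 of 8 on 5 arrays, against 4049 of all 14870 genes. Smc6 had the lowest value there at −1.04 (SE 0.33, adjusted p = 0.563), and on 5 arrays −0.73 (SE 0.19, adjusted p = 0.125). Slf2 had a difference of −0.60 (SE 0.25) over 6 arrays and of −0.48 (SE 0.20) on 5, and Slf1 one of −0.42 (SE 0.33) and −0.08 (SE 0.16). The other probe of Slf1 gave −0.06 and −0.74. Nsmce3 was highest at 0.88 (SE 0.74), with a level of −0.68 on water replicate 3 against 1.83 to 2.26 elsewhere, and on 5 arrays its difference was −0.07. No gene of either list passed the test in either comparison, and the medians of the 4 lists were not tested against each other.

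**Figure D4:**
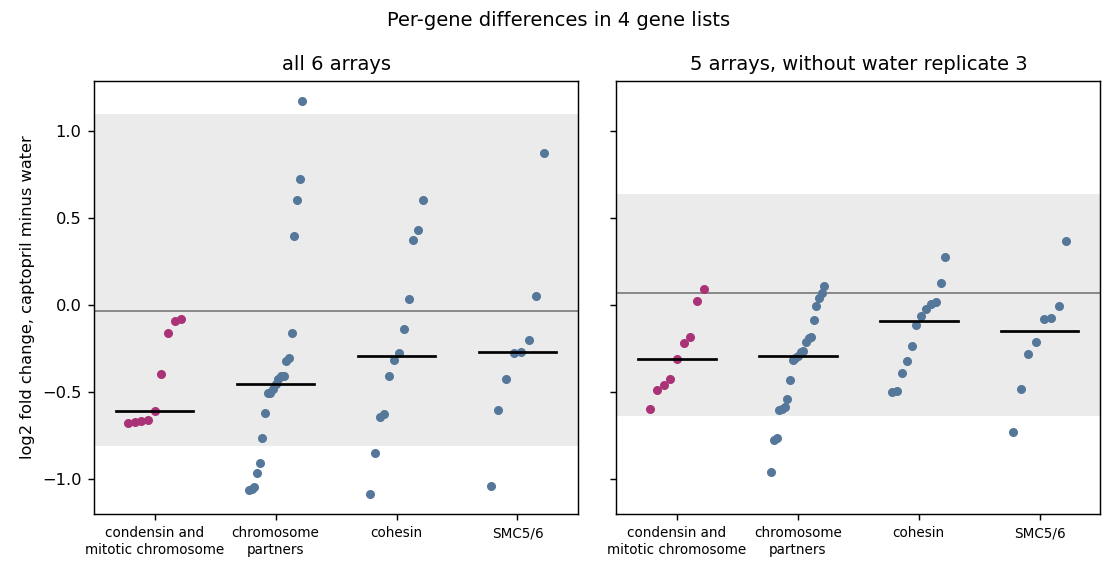
Log2 fold change, captopril minus water, of each gene in the condensin and mitotic chromosome genes (purple) and in the lists of 21 chromosome partners, 12 cohesin and 8 SMC5/6 genes (blue), over all 6 arrays (left) and over 5 arrays (right). Black bars mark list medians (−0.61 and −0.31 for the purple points), the grey line the median of all 14870 genes and the grey band the 5th to 95th percentile of all genes.

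Genes whose pattern over the arrays was most like that of the 9 genes were found by Pearson's r with the mean of their centred levels, as a description. Over 6 arrays the highest values were those of Ubtd2 (0.996), Necab2 (0.996), Spon2 (0.995), Cdkn1c (0.995) and Syt16 (0.994), among 14240 genes. These points share the high level of water replicate 3. Over the other 5 arrays the highest were Ccnj (0.998), Loxl2 (0.997), Tab3 (0.997), Mpo (0.996) and Lancl2 (0.996), so the names depended on that array. Cdkn1c, which encodes an inhibitor of cyclin-dependent kinases, stood at 2.61, 3.34 and 2.52 on water replicates 2, 3 and 4 and at 2.00, 2.09 and 2.43 on captopril replicates 2, 3 and 4. Its difference was −0.65 (SE 0.29, adjusted p = 0.616) over 6 arrays and −0.39 (SE 0.18, adjusted p = 0.284) on 5, and neither passed the test. Its groups did not overlap, but it was chosen for its likeness to the 9 genes, so this is not a separate result.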

How the data were processed

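RNA of 3 captopril and 3 water cultures was labelled with Cy3 and measured on single-colour Agilent arrays that lie on 1 slide. The deposited spot intensity values come from Agilent Feature Extraction, 11.5.1.1 per the file headers (10.7 per the submitters' processing notes), which subtracted background within each array. The authors' deposited log2 table matched log2 of these intensities up to a constant for each array (r = 1, 100% of values within 0.01). Its column medians were −3.80, −4.24 and −3.79 (water 2, 3, 4) and −3.72, −3.63 and −3.62 (captopril 2, 3, 4), which leaves its exact centring unstated, and it served as an alternative.

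Control and outlier spots were dropped, log2 signals were set relative to the 75th percentile of each array (1875 to 3424), and spots of a probe were averaged. Between 52.2% and 60.5% of spots were well above background, and the number of arrays limits the precision. Probes were named by unversioned RefSeq accession (GRCm38.p6 table), which named 26762 of 55681 probes. Probes had to be well above background on 3 or more arrays, and the brightest stood for its gene. limma 3.58.1 in R 4.3.3 compared the groups, two-sided, with Benjamini-Hochberg adjustment over all genes and a threshold of 0.05. A second fit took all probes. The code was tested on simulated data. Tables were made with pandas 2.3.3 and numpy 2.4.6, and plots with matplotlib 3.10.9, in Python 3.11.15. The motifs were searched on both strands of the 250 bases before each start.

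Named were all 9 members, the 3 lowest and the highest gene of each list, any listed gene past the threshold, and the 5 genes most like the members. Members, lists, markers and motifs were chosen with earlier results of these data known. Normexp (offset 50, on median spot signals), quantile and median scaling, filters, the mean of probes, the authors' table, a variance trend, blocks and each array left out were tried as alternatives.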

Additional observations from a re-analysis of the deposited data

How the results depend on the processing

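No member gene passed an adjusted p of 0.05 in limma under any alternative run on 6 or on 5 arrays. The member fold changes, Ncaph, Ncapd3, Ncapd2 and Top2a apart, kept their sign throughout. Of 279 member fold changes under alternatives, 256 had the sign of the reported value and 23 had not. These are not 279 separate checks, since the variance trend, the replicate block and the filters left each fold change they kept as it was. The fit without water replicate 3 is the 5-array comparison itself, and slide row 2 only gave the same fold changes as the slide row block. Ncapd3 turned to 0.16 with the mean of its probes and to 0.12 with the slide row as a block or slide row 2 only, where Ncaph was at 0.44. With each of the 6 arrays left out in turn, Ncapd2 ranged from −0.24 to 0.14, Ncapd3 from −0.65 to 0.093, Ncaph from −0.36 to 0.056 and Top2a from −0.595 to 0.10. On 5 arrays Ncaph turned to −0.0043 with normexp, −0.070 with quantile and −0.11 with median scaling, where Ncapd3 was at −0.039. With a further array left out Ncapd2 ranged from −0.53 to 0.17, Ncapd3 from −0.041 to 0.25 and Ncaph from −0.39 to 0.44.

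The count of all genes called over 6 arrays was 0 to 91 with each array left out, the 91 without water replicate 3. On 5 arrays the 91 became 39 with median scaling and 0 with quantile normalization, no filter on dim probes or the slide row as a block, and 0 to 36 with a further array left out. Before adjustment 2996, 2844 and 1765 genes lay below 0.05 under those 3 settings. Scaling by the array median put the median of all genes at −0.33 over 6 arrays and that of the members at −0.91. Relative to all genes the members stood at −0.58, as in the 75th percentile scaling. That had to be so, since both scalings shift each array by a constant. The replicate block cannot change the fold change of a gene measured on all 6 arrays, since each number occurs in both groups. The median of the members was therefore again −0.61. With this block limma called 0 genes, and 1367 had an unadjusted p under 0.05. Same-numbered arrays did not deviate together (r of −0.015, 0.0213 and −0.193 for numbers 2, 3 and 4). With 3 arrays a group, and water replicate 3 apart from the rest, these values cannot settle whether the numbers pair the samples. The alternatives on 5 arrays were chosen after the data had been seen.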
